A study of Mus musculus with 25 samples.

Results

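The heat shock proteins and DnaJ chaperones were followed across hepatoblastomas (HBs), the liver tumor of early childhood modelled here in mice, and livers. The genes were chosen by name alone: all entries of the deposited expression table beginning with Hspa, Hspb, Hspd, Hspe, Hsph, Hsp90, Dnaja, Dnajb or Dnajc and a number, plus Cryab, which gave 74 of 36333 genes. All libraries came from FVB mice, and 5 were available in each of 4 groups. DDDA HBs were tumors raised by Sleeping Beauty (SB) plasmids carrying Del90, a deletion mutant of β-catenin, and YAP S127A, a mutant of the Hippo effector YAP that stays in the nucleus, with an element the labels call xloc and do not explain. Their mice had eaten chow with 10% dodecanedioic acid (DDDA), a medium-chain dicarboxylic fatty acid, for 3 to 4 weeks. DDDA livers came from mice on the same chow that had received no injection. Standard HBs carried the same plasmids and standard livers had no injection, both on the normal diet. The controls therefore differed from the HBs in the plasmid injection as well as in the tumor, each HB was the product of whichever hepatocytes had taken up the plasmids, and the labels gave no ages. Each library has an animal or tumor number of its own, and the sexes were mixed, with 1 male among DDDA HBs, 3 among DDDA livers, 3 among standard HBs and 2 among standard livers. A further 5 HBs from a long-term DDDA diet were not analysed here.

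Chaperones keep other proteins foldable. The HSP70 proteins bind short hydrophobic stretches in cycles of ATP hydrolysis, DnaJ (J) proteins deliver clients and trigger that hydrolysis, HSP110 proteins reload the HSP70 with nucleotide, and HSP90 takes over late folding steps of kinases and receptors. Small heat shock proteins hold unfolded proteins without using ATP, and the HSP60/HSP10 chamber folds proteins in the mitochondrial matrix. Each compartment has its own set, and in hepatocytes, which secrete plasma proteins and are rich in mitochondria, the endoplasmic reticulum (ER) and mitochondrial sets are abundant. Heat shock factors switch the cytosolic set on through heat shock elements, and the unfolded protein response switches the ER set on through ER stress elements.

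RefSeq promoter windows on GRCm38.p6, from 250 bases before to 50 bases after each start, were found for 58 of the 74 genes. Hspa8, Hsp90aa1, Hsp90ab1, Hspa9, Cryab and Hspb2 were among the genes without a window and were not searched. A heat shock element was searched as GAANNTTCNNGAA or TTCNNGAANNTTC and an ER stress element as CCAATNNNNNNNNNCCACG or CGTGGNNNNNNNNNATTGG, which covers both strands. The heat shock element was present in 4 of the 58 genes (6.9%), namely Hspd1, Hspe1, Hsph1 and Dnajb6, and in 0.662% of all 27025 genes with a window. The ER stress element was present in 3 of the 58 (5.17%), Hspa5, Hsp90b1 and Dnajc3, against 0.137% of all genes. The windows below are shown because they belong to the chaperones whose levels are described in detail further on. Capitals mark the element.
Hspe1: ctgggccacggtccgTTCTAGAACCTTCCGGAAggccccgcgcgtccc
Dnajb6: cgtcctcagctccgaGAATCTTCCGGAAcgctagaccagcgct
Hspa5: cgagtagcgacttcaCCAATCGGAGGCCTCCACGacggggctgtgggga
Hsp90b1: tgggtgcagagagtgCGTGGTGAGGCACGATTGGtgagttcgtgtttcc
Dnajc3: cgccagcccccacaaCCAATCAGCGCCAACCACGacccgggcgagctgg
The Hspe1 stretch lies on the plus strand at chr1:55088044-55088091, with the element 72 to 89 bases before the start. Hspd1 is transcribed from the opposite strand of the same region, and its window holds the same element read from the other side. The Hspa5 stretch is at chr2:34772010-34772058 on the plus strand, the Dnajc3 stretch at chr14:118937812-118937860 on the plus strand, the Dnajb6 stretch at chr5:29735837-29735879 on the plus strand and the Hsp90b1 stretch, 1 of 2 such elements in that promoter, at chr10:86705518-86705566 on the minus strand. A match describes these letters only. Hspa1a, Hspa1b, Hspb1 and Dnajb1 had a window and no match for either element, which does not show that they lack one.

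The libraries held 18323912 to 29783324 counts in DDDA HBs and 18817404 to 23373175 in DDDA livers, against 16818785 to 19308728 in standard HBs and 16548771 to 18348116 in standard livers. The 20 most abundant genes took 16.1 to 20.2% of the counts in DDDA HBs and 21.9 to 24.8% in DDDA livers, against 15.5 to 17.8% in standard HBs and 20.5 to 29.9% in standard livers. Levels are therefore given in CPM, counts scaled to a common library total, with trimmed mean of M values (TMM) factors over all 20 libraries, and a fold change is relative to the typical gene. On total counts without these factors the median gene was 0.73 higher in HBs on the log2 scale on DDDA and 0.70 higher on the standard diet. The DDDA HB DT2264 stood apart, with 3193 CPM summed over 10 stellate cell and fibroblast markers against 63.8 to 633 CPM in the other DDDA HBs. The 9 hepatocyte markers summed to 29930 to 58370 CPM in DDDA HBs and 92760 to 140200 CPM in DDDA livers, against 28530 to 46930 CPM in standard HBs and 99230 to 146600 CPM in standard livers. In such bulk tissue, fewer cells of a type and less RNA per cell cannot be told apart. The 2 diets were also sequenced on different flow cells, and the column names of the standard libraries mark their reads as paired and trimmed where those of the DDDA libraries do not, so that diet, sequencing run and read processing cannot be told apart, and HBs and livers never shared a lane. Within the DDDA diet, DL03 and DT3168 carry another flow cell name than the remaining libraries.

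Comparing HBs with livers, which asks how the chaperone set of the tumor differed from that of its tissue of origin, 13 genes of the set were higher and 24 lower among 63 tested on the DDDA diet by edgeR's quasi-likelihood test at an adjusted p under 0.05. The share called among all 13415 genes tested was 26.3% higher and 23.4% lower. On the standard diet 16 were higher and 23 lower of 63, against 28.2% and 26.8% of 13830 genes. On both diets lower calls took a larger share of the set than of all genes, and higher calls a smaller one, which was not tested. The median log2 fold change of the set was 0.05 on DDDA and -0.05 on the standard diet, beside 0.08 and 0.02 for all genes tested. Counts differed between compartments, which was not tested. No cytosolic HSP70 was lower with or without TMM factors, and no mitochondrial chaperone was higher, although on total counts Dnajc4 was called higher on DDDA and Dnajc15 on the standard diet. On both diets 10 genes were called higher and 19 lower. The groups did not overlap in 27 of the 63 genes on DDDA and in 28 on the standard diet, against 38.1% and 41.3% of all genes tested. Without TMM factors 36 were higher and 7 lower on DDDA and 36 higher and 4 lower on the standard diet, where 59.4% of all genes were higher and 8.59% lower on DDDA and 63.5% and 9.39% on the standard diet. A direction given as lower here therefore means lower relative to the typical gene unless it is said to hold on total counts.

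**Figure D1:**
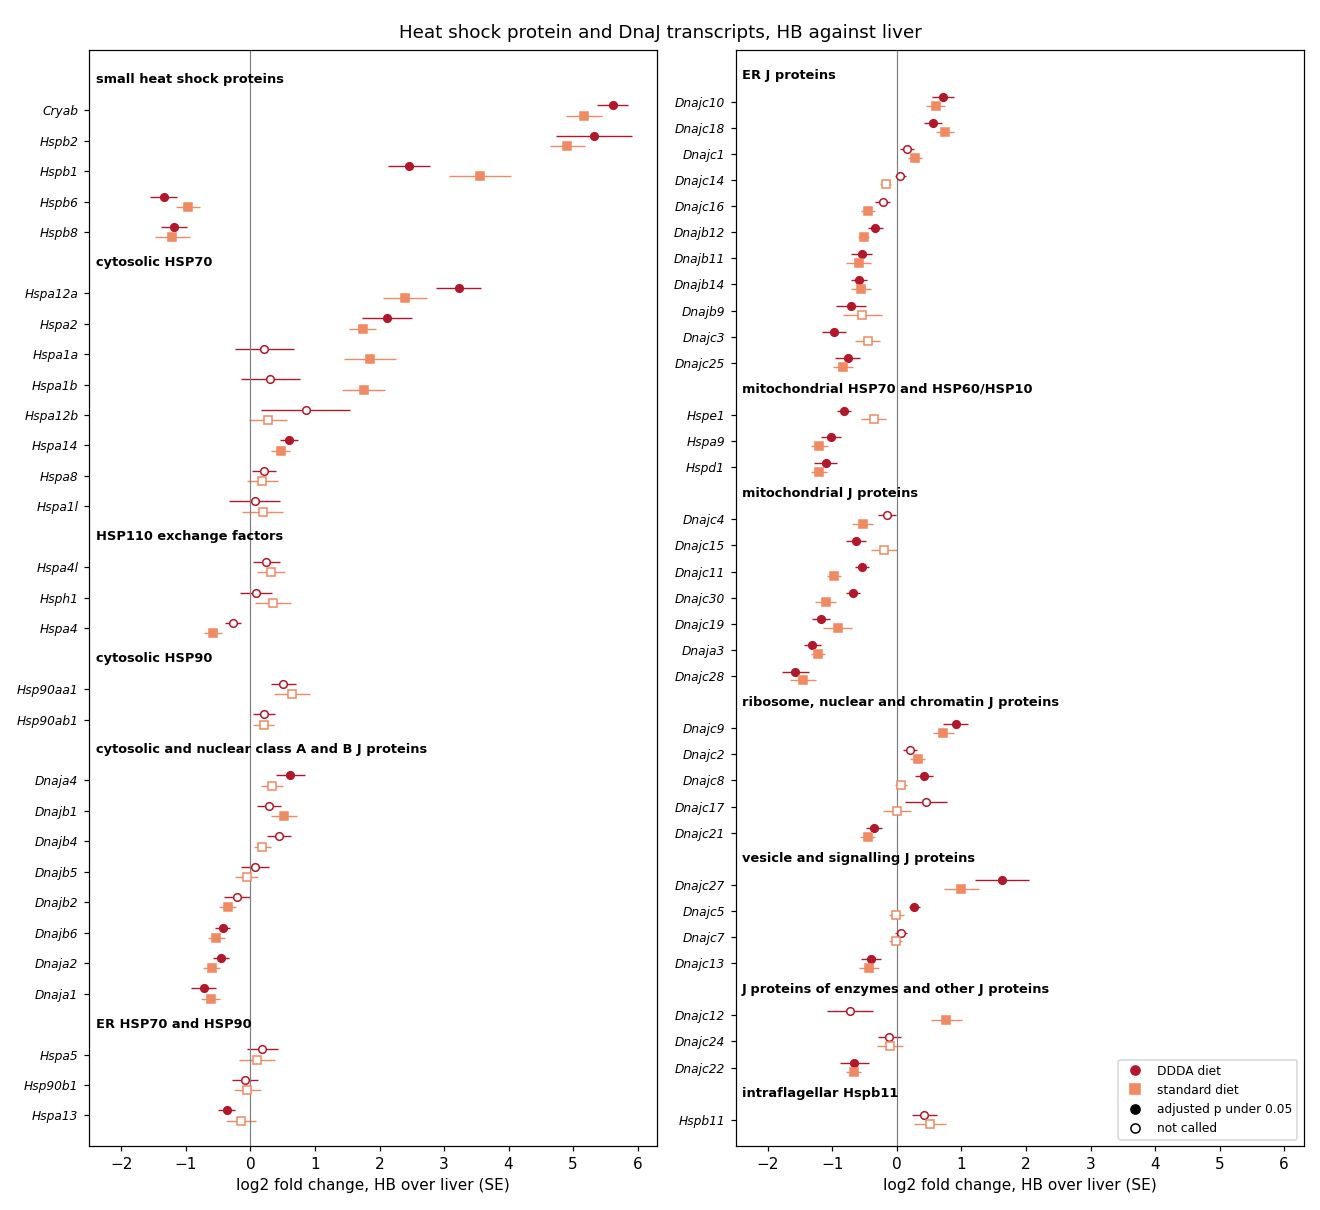
Log2 fold change of HB over liver for every tested heat shock protein and DnaJ gene, grouped by role, with bars for the standard error, circles for the DDDA diet and squares for the standard diet. Filled symbols passed an adjusted p of 0.05. Cryab and Hspb2 lie furthest to the right, between 4.91 and 5.61, and the 10 mitochondrial genes all lie left of 0, where Hspe1, Dnajc4, Dnajc11 and Dnajc15 would lie right of it on total counts on at least 1 diet.

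Of the small heat shock proteins, Cryab (αB-crystallin), which holds partly unfolded cytoskeletal and other proteins, had the largest difference of the whole set. It stood at 171, 152, 118, 143 and 95.4 CPM in DDDA HBs, against 2.61, 3.45, 1.83, 2.89 and 3.04 CPM in DDDA livers. In standard HBs it stood at 120, 185, 178, 70.2 and 104 CPM, against 3.17, 3.51, 4.55, 2.62 and 3.95 CPM in standard livers. Every HB was far above every liver, at a log2 difference of 5.61 ± 0.24 on DDDA (± is the SE, adjusted p = 5e-07) and 5.17 ± 0.28 (adjusted p = 1.9e-07) on the standard diet. Hspb2, its neighbour on chromosome 9 and a binding partner of the myotonic dystrophy kinase, was scarcer but moved alike. Its level was 4.51 to 6.86 CPM in DDDA HBs and 0 to 0.313 CPM in DDDA livers, and at 6.67 to 8.02 CPM in standard HBs and 0.0819 to 0.345 CPM in standard livers. The log2 fold changes were 5.32 ± 0.59 and 4.91 ± 0.27, and the groups did not overlap on either diet. Hspb2 and Cryab are annotated on opposite strands and overlap by 1030 bases. Whether the counting used strand is not given in the sources used here, so that their reads may be mixed, and Hspb2 is uncertain.

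Both genes are also well known from striated muscle. The 8 skeletal and heart muscle markers together reached 0.632 to 6.70 CPM in DDDA HBs and 0.670 to 1.69 CPM in DDDA livers, against 0.629 to 5.18 CPM in standard HBs and 0.737 to 1.33 CPM in standard livers. Of those 8 markers, 4 were at 0 in all DDDA livers and 3 in all standard livers. Smooth muscle markers summed to 79.0 to 484 CPM in DDDA HBs and 100 to 125 CPM in DDDA livers. On the standard diet they summed to 136 to 173 CPM in HBs and 121 to 169 CPM in livers. The highest sum among DDDA HBs was in DT2264, which had the lowest Cryab of its group. The 8 cholangiocyte markers were also higher in HBs, at 147 to 1698 CPM in DDDA HBs and 48.7 to 64.0 CPM in DDDA livers, and at 294 to 932 CPM in standard HBs and 47.6 to 57.3 CPM in standard livers. Within DDDA HBs their highest sum was again in DT2264. Among standard HBs their highest sum was in s1799 and their lowest in s2138. These had the highest and lowest Cryab of that group (185 and 70.2 CPM). The part of the muscle and cholangiocyte markers in the result was not tested.

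Hspb1 (HSP27), which binds actin and damaged proteins, was likewise far higher in HBs. It was at 64.6, 67.7, 78.0, 62.8 and 136 CPM in DDDA HBs, against 12.3, 15.4, 6.82, 22.3 and 16.4 CPM in DDDA livers. Standard HBs had 97.8, 110, 78.7, 71.9 and 113 CPM, against 5.52, 2.56, 2.89, 16.3 and 12.2 CPM in standard livers. The groups were apart on both diets (log2 fold change 2.46 ± 0.33, adjusted p = 2.1e-04 on DDDA; 3.55 ± 0.48, adjusted p = 9e-05 on the standard diet), although standard livers themselves spread over several fold. Hspb8, which works with the autophagy co-chaperone Bag3, went the other way. Its libraries had 83.4 to 170 CPM in DDDA HBs and 273 to 367 CPM in DDDA livers, and at 86.2 to 165 CPM in standard HBs and 170 to 363 CPM in standard livers. It fell by 1.19 on the log2 scale on DDDA (SE 0.20, adjusted p = 7.7e-04), also on total counts, and by 1.21 on the standard diet (SE 0.27, adjusted p = 0.0027), where on total counts it did not pass (adjusted p = 0.071). Hspb6, which is likewise a muscle-enriched family member, was lower in HBs as well, with log2 fold changes of -1.34 on DDDA and -0.97 on the standard diet, the second not called on total counts (-0.27, adjusted p = 0.19).

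**Figure D2:**
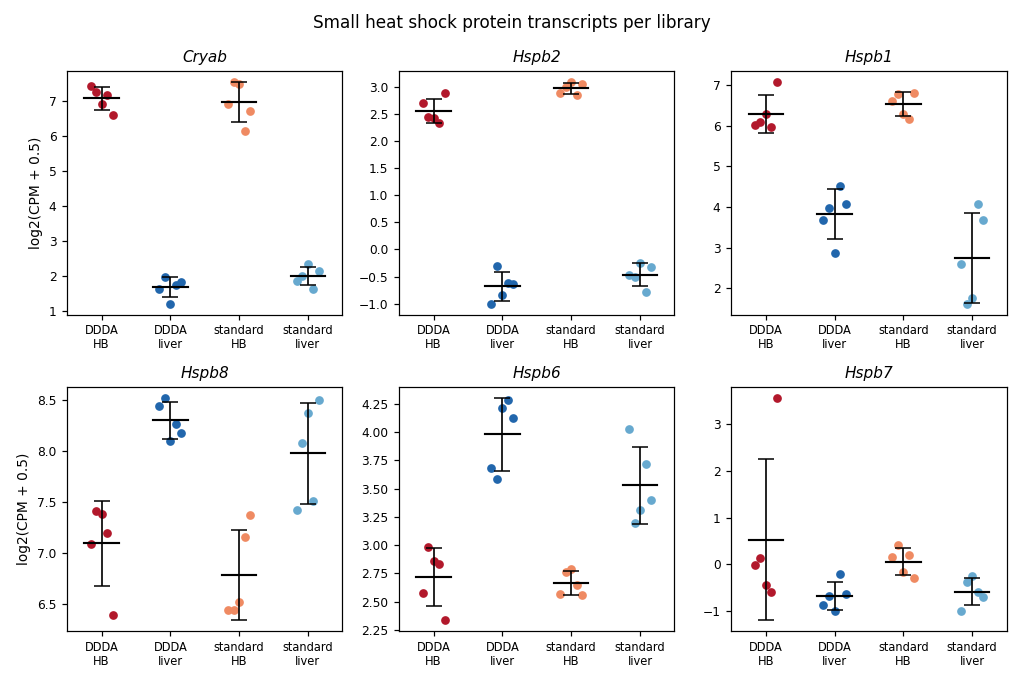
Levels of 6 small heat shock protein transcripts as log2(CPM + 0.5), with 1 point per library, the mean as a line and the SD as bars, for DDDA HBs, DDDA livers, standard HBs and standard livers. Cryab, Hspb2 and Hspb1 are higher in all HBs than in all livers, Hspb8 and Hspb6 are lower relative to the typical gene (on total counts not called on the standard diet), and Hspb7 is near 0 in all but HB DT2264.

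Hspb7 is a heart and muscle family member. The study lists it as lower in its long-term DDDA tumors than in its short-term DDDA tumors, the group called DDDA HBs here. Among the libraries analysed here, Hspb7 was detected well in a single one. It stood at 11.2 CPM in DT2264, against 0.161 to 0.607 CPM in the other DDDA HBs, 0 to 0.370 CPM in DDDA livers, 0.313 to 0.834 CPM in standard HBs and 0 to 0.345 CPM in standard livers. Its log2 difference between DDDA and standard HBs was 2.17 ± 1.12 (adjusted p = 0.37), and it was -0.61 without DT2264 (adjusted p = 0.50). Hspb3 had no read in any library and Hspb9 had 14 reads in all.

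Among cytosolic HSP70 proteins, the constitutive Hspa8 was the most abundant and was not called between HBs and livers (0.21 ± 0.18 on DDDA and 0.18 ± 0.24 on the standard diet; 0.86 and 0.84, both called, on total counts), whereas the scarcer Hspa12a and Hspa2 were higher in HBs on both diets. Of the 8 genes, 3 were higher on DDDA and 5 on the standard diet and none was lower. Hspa12a, an atypical HSP70 without a peptide-binding domain of the usual kind, stood at 7.01, 13.7, 6.81, 15.8 and 8.29 CPM in DDDA HBs, against 1.20, 0.564, 1.04, 1.18 and 1.48 CPM in DDDA livers. On the standard diet, HBs had 9.32, 11.8, 18.3, 5.92 and 5.40 CPM, against 1.33, 2.36, 1.58, 2.29 and 1.88 CPM in standard livers. No HB reached down to a liver on either diet, with log2 fold changes of 3.22 ± 0.35 (adjusted p = 7.8e-05) and 2.39 ± 0.34 (adjusted p = 1.3e-04). Hspa2, best known from male germ cells, stood at 26.4 to 64.0 CPM in DDDA HBs and 5.44 to 22.1 CPM in DDDA livers, and at 26.7 to 41.9 CPM in standard HBs and 5.89 to 14.8 CPM in standard livers. It was higher by 2.12 ± 0.39 and 1.74 ± 0.21 on the log2 scale, again without overlap.

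The stress-inducible HSP70 genes Hspa1a and Hspa1b were called higher in HBs on the standard diet and not on DDDA. Hspa1b stood at 34.7, 83.5, 68.0, 50.9 and 48.8 CPM in DDDA HBs, against 17.1, 24.5, 27.4, 66.4 and 93.6 CPM in DDDA livers. The standard HBs held 102, 73.7, 44.5, 84.6 and 138 CPM, against 43.0, 15.9, 17.9, 26.8 and 26.1 CPM in standard livers. The DDDA groups overlapped, with 2 of the 5 livers, DL04 and DL05, as high as HBs, while every standard HB was above every standard liver. The log2 fold changes were 0.31 ± 0.46 (adjusted p = 0.60) on DDDA and 1.75 ± 0.33 (adjusted p = 9.5e-04) on the standard diet, and for Hspa1a 0.22 ± 0.46 (adjusted p = 0.71) and 1.86 ± 0.40 (adjusted p = 0.0022). Hspa1a overlapped between HBs and livers on both diets, on the standard diet with 14.15 CPM in HB s1800 and 17.75 CPM in liver c1. A test of the diets against each other was not passed (Hspa1a: -1.66 ± 0.65, adjusted p = 0.81), so the diets are not shown to differ. These 2 genes on chromosome 17 are near-identical copies, and how the counting divided their reads is uncertain.

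Immediate early genes, which answer stress and handling quickly, were also higher in HBs. Of 19 listed, 13 were higher and 1 lower among 18 tested on DDDA and 15 were higher and 1 lower among 18 on the standard diet. Of all genes tested, 26.3% were higher and 23.4% lower on DDDA, and 28.2% and 26.8% on the standard diet. Their summed level was 928 to 1636 CPM in DDDA HBs and 339 to 596 CPM in DDDA livers, and 888 to 1203 CPM in standard HBs and 280 to 544 CPM in standard livers. Their part in the HSP70 result was not tested. Of the heat shock factor genes, 4 were tested, and only Hsf4 was called, lower in standard HBs (-0.82, adjusted p = 0.0033), while Hsf1, the main heat shock regulator, differed by 0.24 on DDDA (adjusted p = 0.12) and 0.17 on the standard diet (adjusted p = 0.23).

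**Figure D3:**
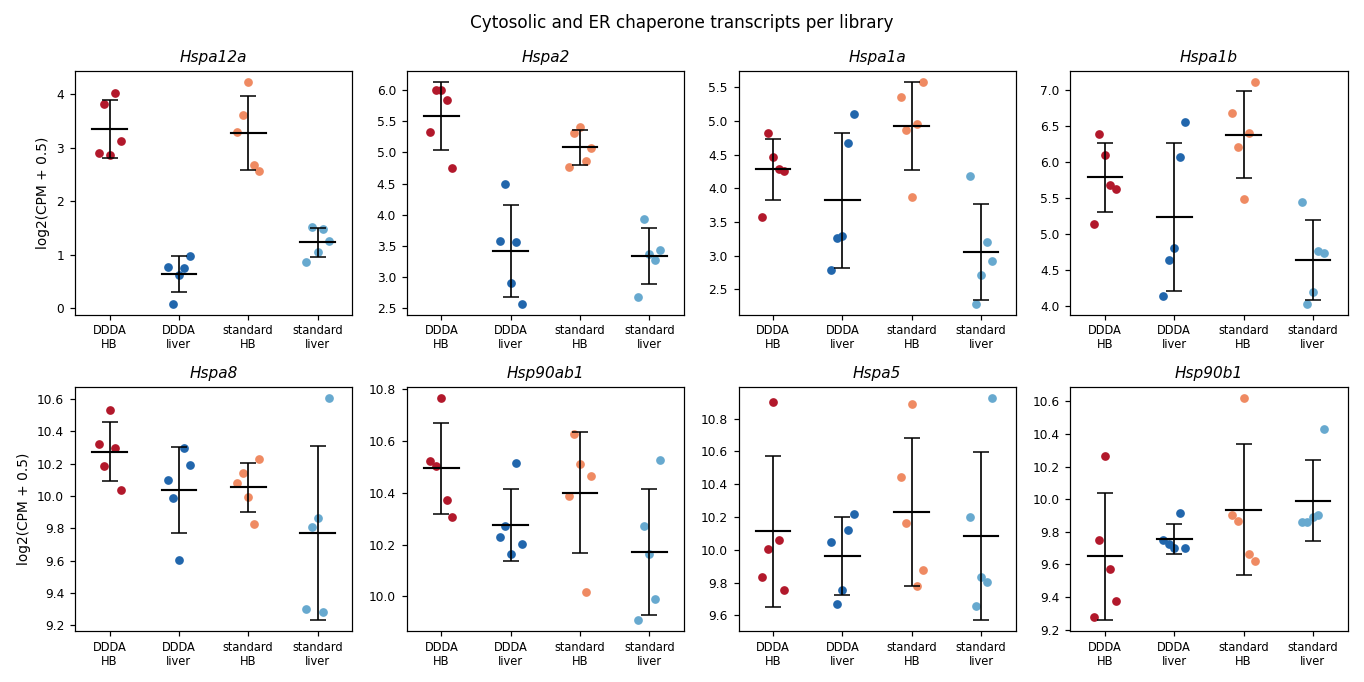
Levels of 8 cytosolic and ER chaperone transcripts as log2(CPM + 0.5), with 1 point per library, the mean as a line and the SD as bars, for DDDA HBs, DDDA livers, standard HBs and standard livers. Hspa12a and Hspa2 separate HBs from livers on both diets, Hspa1b only on the standard diet, and Hspa1a, Hspa8, Hsp90ab1, Hspa5 and Hsp90b1 overlap throughout on this scale.

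The cytosolic HSP90 genes and the HSP110 exchange factors changed little relative to the typical gene. Hsp90ab1, the constitutive HSP90, stood at 1266 to 1739 CPM in DDDA HBs and 1147 to 1461 CPM in DDDA livers, against 1035 to 1579 CPM in standard HBs and 961 to 1473 CPM in standard livers. The inducible Hsp90aa1 stood at 345 to 583 CPM in DDDA HBs and 272 to 429 CPM in DDDA livers, and its log2 differences of 0.51 ± 0.20 on DDDA and 0.64 ± 0.28 on the standard diet missed the threshold (adjusted p = 0.054 and 0.069). Both HSP90 genes were called higher in HBs on total counts. Of the HSP110 genes, Hspa4 was lower in standard HBs (-0.58 ± 0.13, adjusted p = 0.0032), although on total counts the value was 0.12 (adjusted p = 0.54), and Hsph1 and Hspa4l were not called on either diet.

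The class A and B J proteins that serve cytosolic HSP70 were more often lower than higher in HBs relative to the typical gene, and on total counts none was lower. Of 12 genes, 8 were tested, 1 being higher and 3 lower on DDDA and 1 higher and 4 lower on the standard diet. Dnaja1, the most abundant of them, stood at 140 to 287 CPM in DDDA HBs and 329 to 418 CPM in DDDA livers, against 223 to 298 CPM in standard HBs and 354 to 516 CPM in standard livers. HBs lay below livers throughout on this scale, at log2 fold changes of -0.73 (adjusted p = 0.0098) and -0.62 (adjusted p = 0.0037), but on total counts the values were -0.09 and 0.06. Dnajb6, which keeps aggregation-prone proteins soluble and carries the heat shock element shown above, had log2 fold changes of -0.43 on DDDA and -0.53 on the standard diet, both called, and of 0.23 and 0.16, neither called, on total counts. Dnajb1, the inducible partner of Hspa1a, was called higher in standard HBs (0.52 ± 0.20, adjusted p = 0.045) and not in DDDA HBs. The call on the standard diet was lost without s1758, s1799, s2139, c1, c12 or c4 (adjusted p = 0.076 to 0.10).

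The co-chaperones of HSP70 and HSP90 differed in both directions, and their shares were not tested against those of all genes. Of 25 listed, all tested, 5 were higher and 7 lower in HBs on DDDA and 3 higher and 9 lower on the standard diet. Among all genes tested, 26.3% were higher and 23.4% lower on DDDA, and 28.2% and 26.8% on the standard diet. Hspbap1, a binding partner of Hspb1, was higher by 2.02 on DDDA and 1.85 on the standard diet on the log2 scale, and Unc45a, a myosin and HSP90 co-chaperone, by 0.96 and 0.67. Bag4, a nucleotide exchange factor of HSP70, had log2 fold changes of -1.73 and -1.48. Hspbap1, Unc45a and Bag4 were singled out after their values were seen. Of the 15 subunits of the cytosolic TRiC chaperonin and of prefoldin, 15 were tested on DDDA with 2 higher and 1 lower, and 14 on the standard diet with 2 higher and 2 lower. Neither list was examined on total counts.

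In the ER, the main HSP70 and HSP90 were not called between HBs and livers, while their J proteins were more often lower than higher. Hspa5 (BiP) stood at 913, 1029, 1916, 1066 and 863 CPM in DDDA HBs, against 1056, 813, 864, 1113 and 1192 CPM in DDDA livers. With the standard diet it was at 1394, 1144, 1899, 878 and 941 CPM in HBs, against 1175, 807, 912, 892 and 1944 CPM in standard livers. A single library in DDDA HBs, standard HBs and standard livers was above the rest, and the groups overlapped, with log2 fold changes of 0.19 ± 0.25 (adjusted p = 0.55) and 0.10 ± 0.28 (adjusted p = 0.78). Hsp90b1 (GRP94), which folds Toll-like receptors and integrins, had log2 fold changes of -0.08 ± 0.20 and -0.05 ± 0.21. On total counts both were called higher in HBs, Hspa5 by 0.82 on DDDA and 0.79 on the standard diet.

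The libraries with the highest Hspa5 also had high levels of other ER genes. DT2270 among DDDA HBs, s1800 among standard HBs and c7 among standard livers were highest of their groups for Hsp90b1 too, at 1231, 1573 and 1381 CPM. Of 28 listed ER folding and quality control genes, 24 were found in the table, of which 21 were highest of the group in DT2270, 14 in s1800 and 16 in c7, and of all 14503 genes tested 18.7%, 22.5% and 20.1% were highest there. In DDDA livers 5 of the 24 genes were highest in DL05, where Hspa5 was highest, beside 14.3% of all genes tested. Hsp90b1 was instead highest in DL04, at 967 CPM, and the other DDDA livers were not counted in this way. These libraries were singled out after their values were seen.

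Of the 11 ER J proteins, 2 were higher and 6 lower in HBs on DDDA, and 3 were higher and 5 lower on the standard diet; on total counts 6 and 4 were higher and none was lower. Dnajc3 (P58IPK), which restrains the translation arrest of the unfolded protein response and carries an ER stress element, stood at 141, 139, 268, 201 and 147 CPM in DDDA HBs, against 343, 319, 365, 378 and 336 CPM in DDDA livers. In standard HBs it stood at 221, 197, 344, 222 and 203 CPM, against 321, 314, 224, 325 and 418 CPM in standard livers. HBs were below all livers on DDDA (-0.97 ± 0.19, adjusted p = 0.0019; -0.34 on total counts, adjusted p = 0.091) and overlapped them on the standard diet (-0.45 ± 0.20, adjusted p = 0.068). Dnajc10 (ERdj5), a reductase that opens wrong disulfide bonds before degradation, was instead higher, at 82.2 to 152 CPM in DDDA HBs and 57.8 to 77.2 CPM in DDDA livers, and at 61.5 to 106 CPM in standard HBs and 43.7 to 56.4 CPM in standard livers. Its log2 fold changes were 0.72 ± 0.17 and 0.60 ± 0.14, without overlap. Among the wider ER list, 9 of 24 genes were lower and none higher on DDDA, and 8 were lower and 1 higher on the standard diet. The lower share of all genes tested was 23.4% on DDDA and 26.8% on the standard diet, and the higher share 26.3% and 28.2%. The lower genes included Herpud1 (-1.58 and -1.28) and Edem1 (-1.06 and -1.23), both of ER-associated degradation and both singled out after their values were seen. The highest log2 fold change in this list was 1.68 on DDDA and 3.04 on the standard diet. The list was not examined on total counts.

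The mitochondrial chaperones formed the group that was lower in HBs most evenly, and on total counts 5 of its 10 genes were still lower on DDDA and 4 on the standard diet. Of 3 HSP70, HSP60 and HSP10 genes, 3 were lower on DDDA and 2 on the standard diet, and 6 of 7 mitochondrial J proteins were lower on each diet. Hspe1 (HSP10) had log2 fold changes of -0.82 ± 0.10 on DDDA (adjusted p = 1.7e-04; -0.17 and not called on total counts) and -0.36 ± 0.19 on the standard diet (adjusted p = 0.14; 0.30 on total counts), where it was called without s2138 (-0.48, adjusted p = 0.035). Hspa9 (mortalin), the HSP70 of the matrix and the motor of protein import, stood at 343, 389, 492, 380 and 352 CPM in DDDA HBs, against 824, 603, 857, 849 and 800 CPM in DDDA livers. Standard HBs had 296, 256, 325, 262 and 281 CPM, against 614, 654, 604, 750 and 596 CPM in standard livers. Every HB was below every liver, by -1.02 ± 0.16 (adjusted p = 5.3e-04) and -1.20 ± 0.13 (adjusted p = 1.6e-05) on the log2 scale, and it was also called lower on total counts (-0.37 and -0.51).

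Hspd1 (HSP60), the folding chamber of the matrix, behaved like Hspa9. Its level was 295, 365, 363, 297 and 204 CPM in DDDA HBs, against 677, 593, 634, 720 and 634 CPM in DDDA livers. On the standard diet, HBs had 247, 189, 253, 222 and 228 CPM, against 459, 536, 495, 583 and 517 CPM in standard livers. The groups were apart on both diets (-1.10 ± 0.18 and -1.21 ± 0.13, adjusted p = 6.4e-04 and 1.7e-05), and the call held on total counts. Dnaja3 (Tid1), the main J protein partner of mortalin, stood at 68.3, 73.4, 73.1, 71.0 and 51.1 CPM in DDDA HBs, against 162, 132, 181, 181 and 173 CPM in DDDA livers, and at 59.4 to 71.7 CPM in standard HBs and 130 to 166 CPM in standard livers. It fell by 1.31 (SE 0.14, adjusted p = 6e-05) and 1.22 (SE 0.11, adjusted p = 5e-06), with no overlap and also on total counts.

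**Figure D4:**
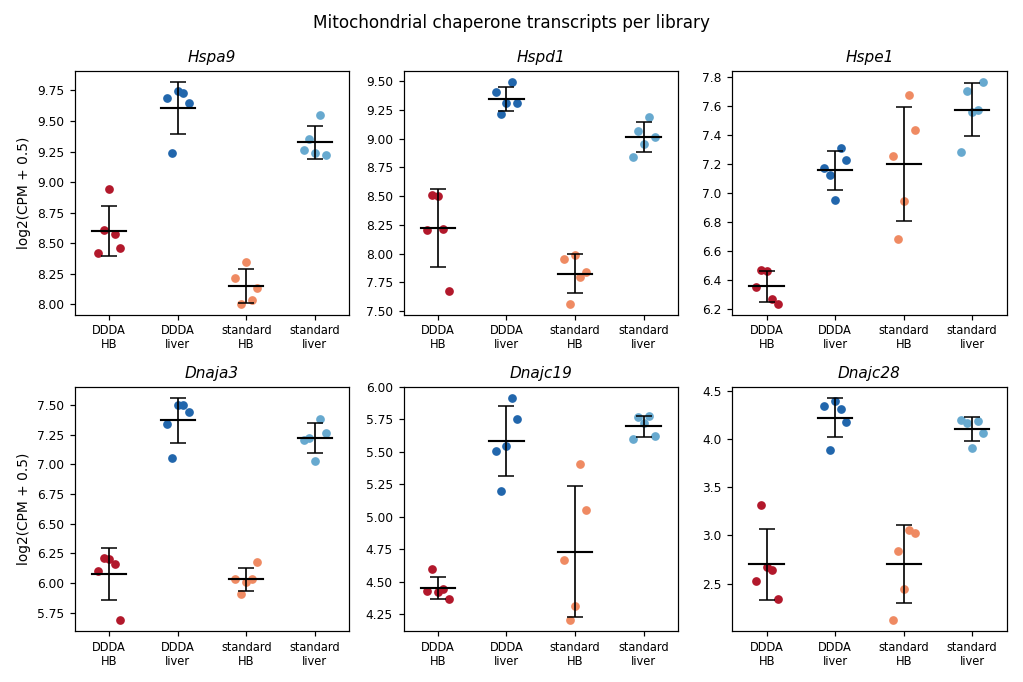
Levels of 6 mitochondrial chaperone transcripts as log2(CPM + 0.5), with 1 point per library, the mean as a line and the SD as bars, for DDDA HBs, DDDA livers, standard HBs and standard livers. All but Hspe1 are lower in every HB than in every liver of the same diet on this scale, and on total counts Dnajc19 does not pass on the standard diet. Hspe1 overlaps only on the standard diet.

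Dnajc28, whose client is not well described, had the largest fall of the mitochondrial J proteins. It was at 4.56 to 9.46 CPM in DDDA HBs and 14.3 to 20.6 CPM in DDDA livers, and at 3.85 to 7.83 CPM in standard HBs and 14.5 to 17.9 CPM in standard livers (-1.57 ± 0.21 and -1.45 ± 0.20, adjusted p = 2.4e-04 and 9.6e-05). Dnajc19 (TIM14), which stimulates mortalin at the import channel, fell by 1.18 (SE 0.14) and 0.92 (SE 0.22) on the log2 scale. Dnajc11, an outer membrane protein tied to cristae organisation, had log2 fold changes of -0.54 ± 0.11 and -0.98 ± 0.11, and on total counts the values were 0.10 (adjusted p = 0.33) and -0.29 (adjusted p = 0.073). Dnajc15, another mortalin regulator at the import channel, was called lower on DDDA and not on the standard diet (-0.63 ± 0.15, adjusted p = 0.0060; 0.02 on total counts, and not called with a trend on gene length removed, adjusted p = 0.063). Of 15 listed partners of these chaperones in import, folding and proteolysis, 11 were lower on DDDA and 10 on the standard diet, and none was higher. Among all genes tested, 23.4% were lower and 26.3% higher on DDDA, and 26.8% and 28.2% on the standard diet. Trap1, the mitochondrial HSP90, had log2 fold changes of -1.35 on DDDA and -1.40 on the standard diet, and Grpel1, the nucleotide exchange factor of mortalin, of -1.08 and -0.65. The partners were not examined on total counts, so that these falls are relative to the typical gene.

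The levels were also read as a share of all transcripts. In the authors' TPM, which sets transcripts per length against the library total, Hspa9, Hspd1 and Hspe1 together took 0.0964% ± 0.0117 in DDDA HBs and 0.107% ± 0.0104 in DDDA livers, against 0.107% ± 0.0113 in standard HBs and 0.106% ± 0.0157 in standard livers (SD, n = 5 each). All 74 genes together took 0.939% ± 0.110 in DDDA HBs and 0.561% ± 0.0504 in DDDA livers, against 1.003% ± 0.210 in standard HBs and 0.575% ± 0.163 in standard livers. The mitochondrial share overlapped between HBs and livers on both diets, and that of the whole set was higher in every DDDA HB than in every DDDA liver and overlapped on the standard diet. On the same scale the median gene had a log2 ratio of HB over liver of 0.92 on DDDA and 0.89 on the standard diet.

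Levels per length were dominated by a few genes, with 52.4% of the summed TPM of the set in Hsp90ab1, Hspa8, Hspa5 and Hsp90b1. Hsp90ab1 averaged 1575 TPM in DDDA HBs and 763 TPM in DDDA livers, against 1577 TPM in standard HBs and 754 TPM in standard livers. Cryab averaged 277 TPM in DDDA HBs and 3.19 TPM in DDDA livers, close to the 290 TPM of standard HBs and the 4.31 TPM of standard livers. In DDDA HBs this was near the 248 TPM of Hspb1 and the 324 TPM of Hspd1, which stood at 24.7 and 392 TPM in DDDA livers. At the other end, 10 genes passed the filter on low counts in no comparison. They were Dnajb3, Dnajb7, Dnajb8, Dnajb13, Dnajc5b, Dnajc5g, Dnajc6, Dnajc19-ps, Hspb3 and Hspb9, and Dnajb8 and Hspb3 had no read in any library. A library with a count of 0 can still have an expected count of up to about 3 reads.

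The remaining J proteins, which act at ribosomes, in the nucleus, on vesicles or as parts of other enzymes, differed in both directions. Of 5 ribosomal, nuclear and chromatin J proteins, 2 were higher and 1 lower on each diet. Dnajc9, a histone chaperone, was higher at 11.1 to 19.7 CPM in DDDA HBs and 6.29 to 8.22 CPM in DDDA livers, and at 13.9 to 18.4 CPM in standard HBs and 6.96 to 13.1 CPM in standard livers (0.91 ± 0.19 and 0.72 ± 0.17). Dnajc27, a Ras-like GTPase with a J domain, was scarce and had the largest log2 fold change of the J proteins on DDDA. It stood at 1.02 to 4.35 CPM in DDDA HBs and 0.565 to 1.25 CPM in DDDA livers, which overlapped, and at 1.66 to 3.77 CPM in standard HBs and 0.884 to 1.52 CPM in standard livers, which did not (1.63 ± 0.42 and 1.0 ± 0.27, adjusted p = 0.0081 and 0.0082). Both genes were singled out after their values were seen. Of 4 vesicle and signalling J proteins tested, 2 were higher and 1 lower on DDDA and 1 higher and 1 lower on the standard diet, with Dnajc5, a synaptic and secretory vesicle chaperone, at 0.27 ± 0.09 on DDDA (adjusted p = 0.025) and -0.01 ± 0.11 on the standard diet, the first not called without DT2270, DT2277, DL02, DL04 or DL05 (adjusted p = 0.050 to 0.076). Dnajc22, whose fly counterpart wurst acts in endocytosis, was lower on both (-0.66 and -0.67), though at -0.03 and 0.01 on total counts, and on DDDA not without DT3168, DL03, DL04 or DL05 (adjusted p = 0.052 to 0.067). Hspb11, which despite its name belongs to the intraflagellar transport complex, was not called (0.42 and 0.52, adjusted p = 0.097 and 0.093).

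Dnajc12, which protects the aromatic amino acid hydroxylases, had values in opposite directions on the 2 diets. Its libraries had 8.95, 13.1, 8.46, 9.54 and 14.0 CPM in DDDA HBs, against 10.5, 38.0, 12.7, 12.96 and 14.5 CPM in DDDA livers. The standard HBs held 21.1, 12.7, 9.20, 21.9 and 21.2 CPM, against 10.1, 8.84, 11.7, 9.91 and 9.60 CPM in standard livers. The high DDDA liver is DL02 alone, and HBs and livers overlapped on both diets. The log2 fold change was -0.73 ± 0.35 on DDDA (adjusted p = 0.11) and 0.77 ± 0.24 on the standard diet (adjusted p = 0.018), and the difference between diets was -1.51 ± 0.44 (adjusted p = 0.61 over all genes).

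The diet itself, which asks whether DDDA moved chaperones within a tissue, was followed by few calls. In HBs none of 64 genes passed between DDDA and standard diets, where 0.0994% of 14082 genes were higher and 0.199% lower. At an unadjusted p under 0.05 there were 11 of the 64, against 16.3% of all genes. DESeq2 called 1 higher and 1 lower of 62, against 2.37% higher and 2.57% lower of 13864 genes. In livers 4 of 61 were lower and none higher, against 3.07% lower and 4.27% higher of 12803 genes. For the difference between the diet effects of the 2 tissues no gene of the set passed, with 5 at an unadjusted p under 0.05, and none of 14502 genes passed at all (0%), with 877 at an unadjusted p under 0.05. DESeq2 called 8 higher and 4 lower there, none of them of the set.

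The 4 genes lower in DDDA livers were Dnajc14, an ER J protein of receptor transport, Dnajc8, a spliceosome J protein, Hspe1 and Dnajb2, which directs clients to the proteasome. Dnajc14 stood at 54.3, 50.3, 53.9, 51.6 and 48.1 CPM in DDDA livers, against 63.6, 64.2, 69.0, 58.4 and 67.7 CPM in standard livers, with every DDDA liver lower (-0.32 ± 0.06, adjusted p = 0.018). Dnajc8 stood at 28.7, 27.4, 29.7, 26.4 and 25.2 CPM in DDDA livers, against 31.6, 33.3, 38.9, 33.7 and 32.8 CPM in standard livers, again without overlap (-0.31 ± 0.07, adjusted p = 0.033). Dnajb2 overlapped, at 73.9 to 94.5 CPM in DDDA livers and 90.2 to 138 CPM in standard livers (-0.47 ± 0.13, adjusted p = 0.046). Of these 4 calls, only that of Dnajc14 held in every alternative fixed with the design, and none held on total counts. Without single libraries 1 to 3 of these 4 were called, with 1 left without c12, c17, DL01, DL03 or DL05, 2 without c4, c7, DL02 or DL04 and 3 without c1. The adjusted p of Dnajb2 was then up to 0.10, that of Dnajc8 up to 0.072 and that of Hspe1 up to 0.081. In HBs the same genes had diet differences of -0.14 ± 0.09 for Dnajc14, 0.00 ± 0.16 for Dnajc8 and -0.38 ± 0.19 for Dnajb2, none of which passed.

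Hspe1 (HSP10), the lid of the HSP60 chamber, is on a list that the study drew from these libraries, so its direction is not independent evidence. It stood at 81.2, 87.8, 87.6, 76.4 and 74.8 CPM in DDDA HBs, against 152, 102, 123, 204 and 173 CPM in standard HBs. In DDDA livers it stood at 144, 139, 123, 158 and 150 CPM, against 155, 208, 188, 189 and 217 CPM in standard livers. All DDDA HBs were below all standard HBs, while the livers overlapped. The log2 difference was -0.93 ± 0.18 in HBs (adjusted p = 0.060; 5.8e-04 by DESeq2, 0.0034 with all 20 libraries in 1 fit, 0.16 without s2138) and -0.42 ± 0.11 in livers (adjusted p = 0.037), and the two-sided exact permutation test of the HB values gave p = 0.0079, the smallest that 5 against 5 libraries allow. The difference between tissues was -0.48 ± 0.23 (adjusted p = 0.81).

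Hspd1, which shares the promoter region of Hspe1, had diet differences of the opposite sign. Its log2 difference was 0.38 ± 0.17 in HBs (adjusted p = 0.29) and 0.33 ± 0.10 in livers (adjusted p = 0.074). The ratio of Hspd1 to Hspe1 TPM was 0.817 to 1.25 in DDDA HBs and 0.326 to 0.618 in standard HBs, and 1.27 to 1.55 in DDDA livers and 0.714 to 0.923 in standard livers, so that neither tissue had any overlap between diets. The ratio was chosen after its values were seen. Hspe1 is annotated at 860 bases and Hspd1 at 2868 bases, and with a trend on gene length removed the Hspe1 difference in livers was no longer called. The part of the sequencing run and read processing in it cannot be told apart from the diet.

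**Figure D5:**
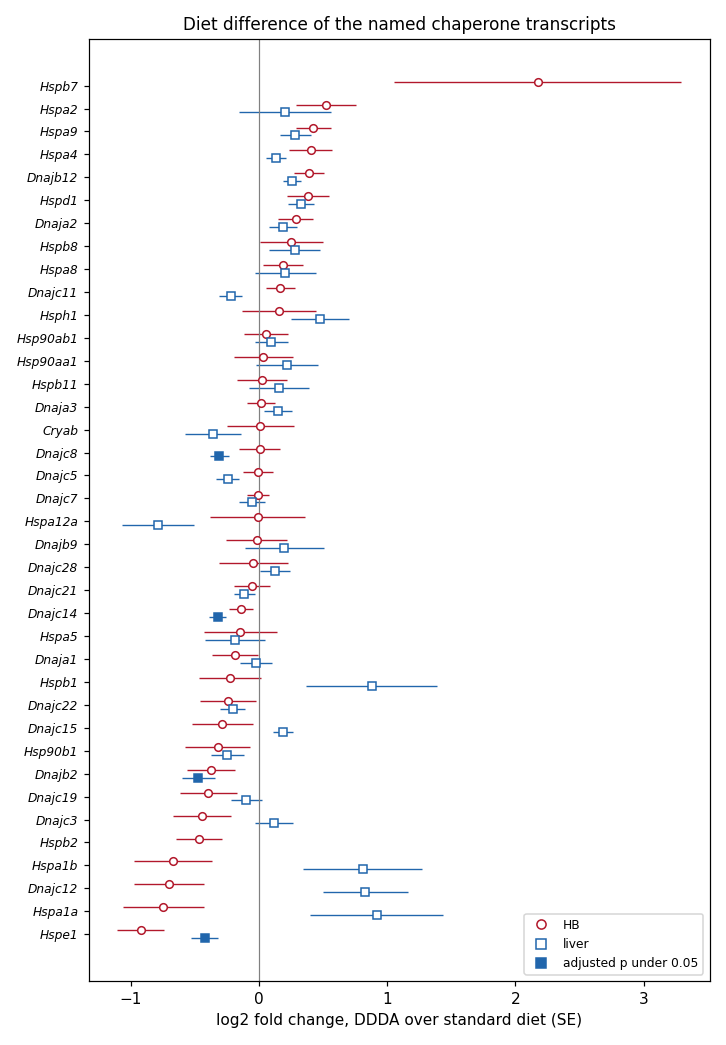
Log2 fold change of DDDA over standard diet for the named chaperone genes in HBs (circles) and livers (squares), with bars for the standard error and filled symbols for an adjusted p under 0.05. Hspe1 has the lowest value in HBs (-0.93), only Dnajc14, Dnajc8, Hspe1 and Dnajb2 in livers are filled, and the wide bar of Hspb7 rests on HB DT2264.

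Dnajb12, an ER membrane J protein, and Hspa9 were not called between diets in HBs, at 0.39 ± 0.12 (adjusted p = 0.16) and 0.42 ± 0.14 (adjusted p = 0.19). For Hspa9 the DDDA HBs at 343 to 492 CPM were all above the standard HBs at 256 to 325 CPM. Of the lists around the chaperones, no co-chaperone, TRiC, ER or mitochondrial partner gene passed between diets in HBs. In livers 1 of 14 TRiC and prefoldin genes was higher and 2 were lower on DDDA, 2 of 15 mitochondrial partners were higher and 1 lower, and none of the 25 co-chaperones or 24 ER genes was called. Of all genes tested in livers, 4.27% were higher and 3.07% lower.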

How the data were processed

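RNA was sequenced from 5 libraries of each of 4 groups, from total RNA and a directional kit. The authors deposited 1 table with read counts, RPKM and TPM per gene, made from reads mapped to GRCm38.p6 according to the submitters' processing notes. The aligner settings and the use of strand in counting are not stated in the sources used here. The deposited counts were tested, the TPM of the authors gave levels per length, and their RPKM were not used. Every data column matched a label, with 0 exceptions, and the long-term DDDA HBs were not analysed here.

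Each comparison of 2 groups was fitted with edgeR 4.0.16 (R 4.3.3) after filterByExpr and TMM scaling by its quasi-likelihood test, with Benjamini-Hochberg adjustment over all genes tested and a threshold of 0.05. The difference between the diet effects was the interaction of a fit of the 4 groups. Fold changes are on the log2 scale with their standard errors (SE), and plots show log2(CPM + 0.5). For the edgeR fits the SE was derived as the absolute log2 fold change over the square root of the F statistic. Ranges and exact permutation tests are over libraries, and n is 5 in each group. No count-based interval is given because replicates carry the error. The fits were run on simulated counts with known changes in a small set of genes, balanced between up and down. That simulation could not test the TMM scaling between HBs and livers, where far more genes differed.

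Alternatives were DESeq2 1.42.0, RLE scaling, no filter on low counts, all 20 libraries in 1 fit, sex as a covariate, removal of a lowess trend on gene length, leaving out each library, and leaving out DT2264 with DT2277 or DL03 with DT3168. Total counts without TMM factors were added after seeing the data. Members and lists were chosen with earlier results of these data known. The rule for naming members took the 4 with the smallest p in each direction of each HB comparison and those called between diets. It also took the 2 most abundant of each role, Hspe1 and Hspb7. Most of these have values or ranges over libraries in the text, and some have only a fold change or none. Other members are given by range and count. Dnajb1, Dnajb6, Dnajc10 and Hspb6 were described outside this rule, with their values known. Promoter sequences are from RefSeq. Protein sequences were not used here.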

Additional observations from a re-analysis of the deposited data

Results flagged for a closer look

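Of 147 sets of 5 libraries checked, 16 had a library far from the other 4, where chance gives about 1 in 20. Among DDDA HBs, DT2264 was high for Hspb1 (136 CPM, next 78.0) and Hspb7 (11.2 CPM, next 0.607) and low for Dnaja3 (51.1 CPM, next 68.3) and Dnajb2 (38.5 CPM, next 77.7). In the same group DT2270 was high for Hspa5 (1916 CPM, next 1066) and DT3167 for Dnajc7 (58.3 CPM, next 53.4). Among DDDA livers, DL02 was low for Hspa9 (603 CPM, next 800.0) and Dnajc21 (26.1 CPM, next 30.5) and high for Dnajc12 (38.0 CPM, next 14.5), and DL04 was high for Hsp90b1 (967 CPM, next 859) and Dnajc11 (72.6 CPM, next 62.7). Among standard HBs, s1800 was high for Hsp90b1 (1573 CPM, next 957) and Dnajc3 (344 CPM, next 222) and s1758 for Dnajb2 (109 CPM, next 88.1). Among standard livers, c7 was high for Hsp90b1 (1381 CPM, next 958) and Dnaja1 (516 CPM, next 367).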

How the results depend on the processing

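No call between HBs and livers changed direction under an alternative fixed with the design. In every one of those, 10 of 13 higher and 15 of 24 lower calls held on DDDA, 13 of 16 and 20 of 23 on the standard diet, and 1 of 4 between livers. On total counts 36 were higher and 7 lower on DDDA, and 36 higher and 4 lower on the standard diet, near the shares of all genes there (59.4% and 8.59%; 63.5% and 9.39%). The sign then turned for 10 of the called genes on DDDA, namely Dnajc11 (0.10), Dnajb6 (0.23), Dnaja2 (0.18), Dnajb12 (0.30, called), Dnajc15 (0.020), Dnajc21 (0.29, called), Dnajb14 (0.058), Dnajb11 (0.11), Dnajc13 (0.25) and Hspa13 (0.27), and for 13 on the standard diet, namely Dnajb2 (0.32), Dnaja1 (0.064), Dnajb6 (0.16), Dnaja2 (0.094), Dnajb12 (0.17), Hspa4 (0.12), Dnajc21 (0.24), Dnajc22 (0.0059), Dnajb14 (0.14), Dnajb11 (0.093), Dnajc13 (0.27), Dnajc16 (0.24) and Dnajc4 (0.13), with the uncalled Hspe1 at 0.30, and the alternative's own construction moves all genes up. Without DL03 and DT3168 the uncalled DDDA values of Hspa1b and Hspa1a were -0.030 and -0.11. The diet value of Hspb7 in HBs ran over -0.61 (without DT2264) to 2.45 when a library was left out and was -0.35 without DT2264 and DT2277. Between diets in HBs, against 0 calls, DESeq2 and the fit of all 20 libraries each gave 1 higher and 1 lower, and total counts gave 1 lower. Between diets in livers, against 0 higher, DESeq2 gave 4, sex as a covariate 1 and the length trend 2, with 0 to 1 when a library was left out. Against 4 lower there, no filter on low counts, all 20 libraries in 1 fit and leaving out DL03 with DT3168 gave 1 each, the length trend 2 and total counts 0, with 1 to 3 when a library was left out. The cause was not tested. No paired analysis was possible because the groups share no replicate labels. Genes with few reads, such as Hspb2 and Hspb7, are limited by depth.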
